A study of Marchantia polymorpha with 9 samples.

Results

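The deposited gene tables of the liverwort Marchantia polymorpha place 207 of their 20574 genes on the V chromosome, and all 207 are described here by what the tables call them, since no symbol for a V gene was found in the sources used here. Marchantia plants are haploid for most of their life. A male plant carries a V chromosome and a female plant a U chromosome, and many V genes are known for roles in sperm, while others have a counterpart on the U chromosome and are used throughout the plant body. A further 20090 genes are placed on numbered chromosomes and 277 on unplaced scaffolds. None is placed on the U chromosome, so U genes were not analysed here. Reads of a U counterpart thus had no U gene to be counted for, and whether any were counted for a V gene was not tested.

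RNA was sequenced from entire 3-week-old thallus plants of the wild type BoGa and of the lines Mpb-gata1-1 and Mpb-gata1-2, which carry mutations in MpB-GATA1, a gene for a B-class GATA zinc finger transcription factor. Plants of the 3 groups were grown alike, on a diluted Gamborg B5 medium at 22 °C under cycles of 16 h light and 8 h dark at 40 µmol m-2 s-1. Every library was made from a pool of 3 plants, with 3 libraries for each group, so the spread behind each p-value is that between pools. The labels give 1 line for each allele and do not give the sex of the plants, and neither the tables nor the name list used here pairs a gene with the name MpB-GATA1, so the mutated gene itself was not checked.

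The libraries held 24823337 to 44133919 gene reads, of which 98.2 to 98.3% were unique to a gene. Genes that mark organs of the thallus were present in all groups. MpNOP1, which is needed for air chambers, had a level of 90.4 ± 10.2 CPM (read counts scaled to library size) in BoGa, with Mpb-gata1-1 at 89.4 ± 5.33 CPM and Mpb-gata1-2 at 88.0 ± 3.34 CPM (SD, n = 3). MpBNB, which starts gametangia, had no read in the 9 libraries, and MpPRM, the protamine-like gene of sperm, had 3 reads over all of them. Of 7 thallus markers, MpGCAM1, a gene of gemma cups, differed most, with BoGa at 5.15 ± 0.639 CPM, Mpb-gata1-1 at 15.3 ± 3.70 CPM and Mpb-gata1-2 at 25.6 ± 3.91 CPM, and rose in both mutants (edgeR adjusted p = 0.000123 and 8.67e-06). MpRSL1 of rhizoids rose by 0.33 on the log2 scale in Mpb-gata1-1 and MpKAR of gemma cups by 0.40 in Mpb-gata1-2 (adjusted p = 0.0105 and 0.0261), and the other 4 passed in neither mutant. The part of these organs in the V results was not tested.

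Most V genes had no read or few reads in these plants. No library had a read for 99 of the 207 V genes (47.8%), against 2369 genes (11.5%) of the whole table. Several V genes without reads share a length of 158 or 1820 bp, and others lie within a longer V gene on the same strand. Whether the genes without reads are silent was therefore not tested. A further 62 V genes had 1 to 99 reads over all libraries and 46 had at least 100. The filter on low counts left 50 V genes for testing (24.2%, against 71.3% of all genes), spread from position 203902 to 7402805 of the chromosome. A gene could pass that filter through a single group in which it was high. Of the 157 V genes not tested, 58 had some reads, and none reached 100. A gene was counted as unique below when at least 95% of its reads over all libraries fitted that gene alone. This holds among the genes counted, which include none placed on the U chromosome. That held for 29 of the 50 tested V genes, 11 had 50 to 95% unique reads, and the other 10 had no unique read at all, so their counts rest on reads shared with another gene. Of the tested V genes, 19 overlap another V gene on the same strand.

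As a share of all reads, the V chromosome differed little between BoGa and Mpb-gata1-1 and was larger in Mpb-gata1-2, but a single gene carried most of that share. V genes took 0.270, 0.321 and 0.360% of the unique reads in the BoGa libraries, 0.383, 0.164 and 0.379% in Mpb-gata1-1, and 0.775, 0.426 and 0.558% in Mpb-gata1-2. The Mpb-gata1-1 libraries fell on both sides of BoGa, and each Mpb-gata1-2 library was above all others. The group means were 0.317 ± 0.0451, 0.309 ± 0.125 and 0.587 ± 0.176% (SD, n = 3), and with total reads they were 0.334 ± 0.0478, 0.321 ± 0.126 and 0.608 ± 0.185%. An exact permutation test, two-sided, gave p = 1.00 for Mpb-gata1-1 against BoGa and p = 0.1 for Mpb-gata1-2 against either group, which is the smallest p that 3 against 3 libraries allow. Without BoGa replicate 3 or Mpb-gata1-1 replicate 2 the difference between Mpb-gata1-1 and BoGa turned from -0.00847 to 0.0131 and 0.0636 percentage points.

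MpVg01240 alone took 55.1 to 63.9% of the unique V reads of the BoGa libraries, with 75 to 89.6% for Mpb-gata1-1 and 47.0 to 68.8% for Mpb-gata1-2. Without it the groups separated. The other V genes then took 0.0977, 0.127 and 0.162% of unique reads in BoGa, 0.0399, 0.0411 and 0.0397% in Mpb-gata1-1, and 0.242, 0.226 and 0.238% in Mpb-gata1-2. No library overlapped those of another group, Mpb-gata1-1 was lowest and Mpb-gata1-2 highest, and each of the 3 pairs of groups gave an exact permutation p of 0.1. With total reads the means were 0.138 ± 0.0316, 0.0478 ± 0.00128 and 0.245 ± 0.00853% (SD, n = 3). In bulk RNA, fewer plants or cells with a V chromosome and less RNA from the V genes of each cell cannot be told apart.

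**Figure D1:**
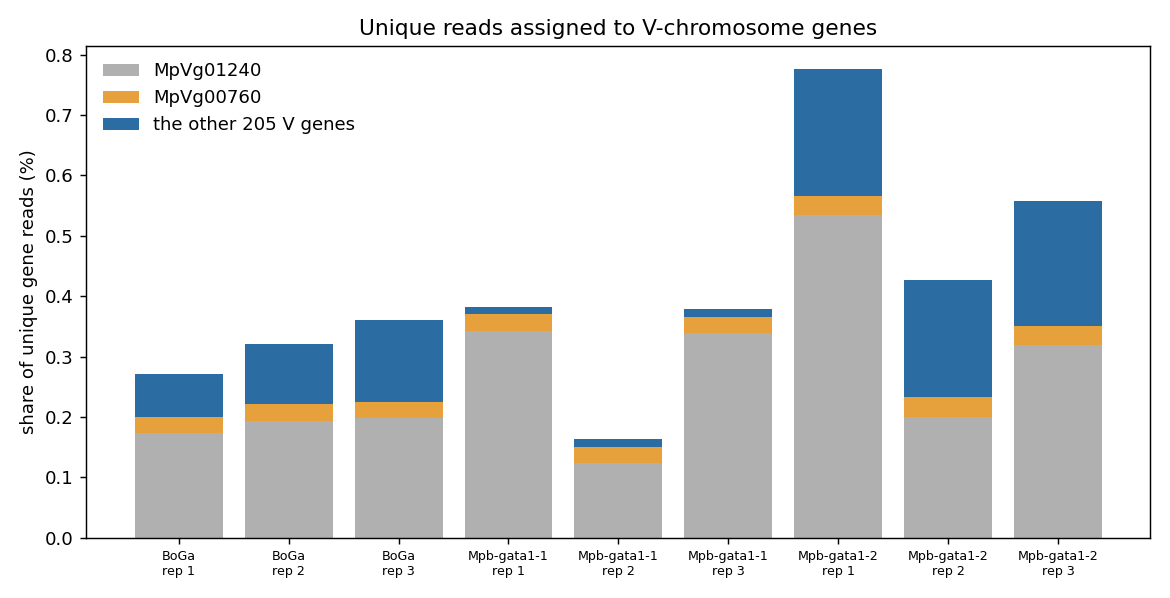
Share of unique gene reads (y axis, %) that fell on V genes in each of the 9 libraries (x axis), with bars stacked from MpVg01240, MpVg00760 and all other V genes. MpVg01240 varied most between libraries of a mutant, MpVg00760 kept 0.0256 to 0.0326% in all 9, and the other V genes took 0.0715 to 0.136% in BoGa, less in Mpb-gata1-1 (0.0131 to 0.0142%) and more in Mpb-gata1-2 (0.194 to 0.209%).

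Gene by gene, many tested V genes were lower in Mpb-gata1-1 than in BoGa, and many were higher in Mpb-gata1-2. Of 50 tested V genes, 30 were lower and 1 was higher in Mpb-gata1-1 than in BoGa (edgeR's quasi-likelihood test with Benjamini-Hochberg adjustment over all 14667 tested genes, adjusted p under 0.05), where 23.0% of all tested genes were lower and 23.0% higher. The median log2 change of the V genes was -2.68, against 0.003 over all tested genes. In Mpb-gata1-2 against BoGa, 26 V genes were higher and 8 lower, beside 21.7% and 24.7% of all tested genes, and the medians were 0.75 and -0.019. Between the mutants, 30 V genes were higher in Mpb-gata1-2 and 2 were lower, beside 14.9% and 16.0% of all tested genes, with medians of 3.51 and 0.001. Genes with reads in a single group, named below, are among these calls. They passed the filter on low counts through that group alone, so their calls are no independent support. The comparisons share libraries, so they are not separate evidence.

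Unique reads alone gave the same picture for the 40 V genes that they allowed to be tested. In Mpb-gata1-1, 26 of them were lower and 0 higher than in BoGa (23.2% and 23.3% of all genes), though 1 was called higher with total reads and 2 with DESeq2 on total reads. In Mpb-gata1-2, 23 were higher and 5 lower than in BoGa (22.1% and 24.8%). Between the mutants, 25 were higher in Mpb-gata1-2 and 1 was lower (15.2% and 16.1%). The median log2 changes of the 40 genes were -3.28, 0.87 and 3.70.

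**Figure D2:**
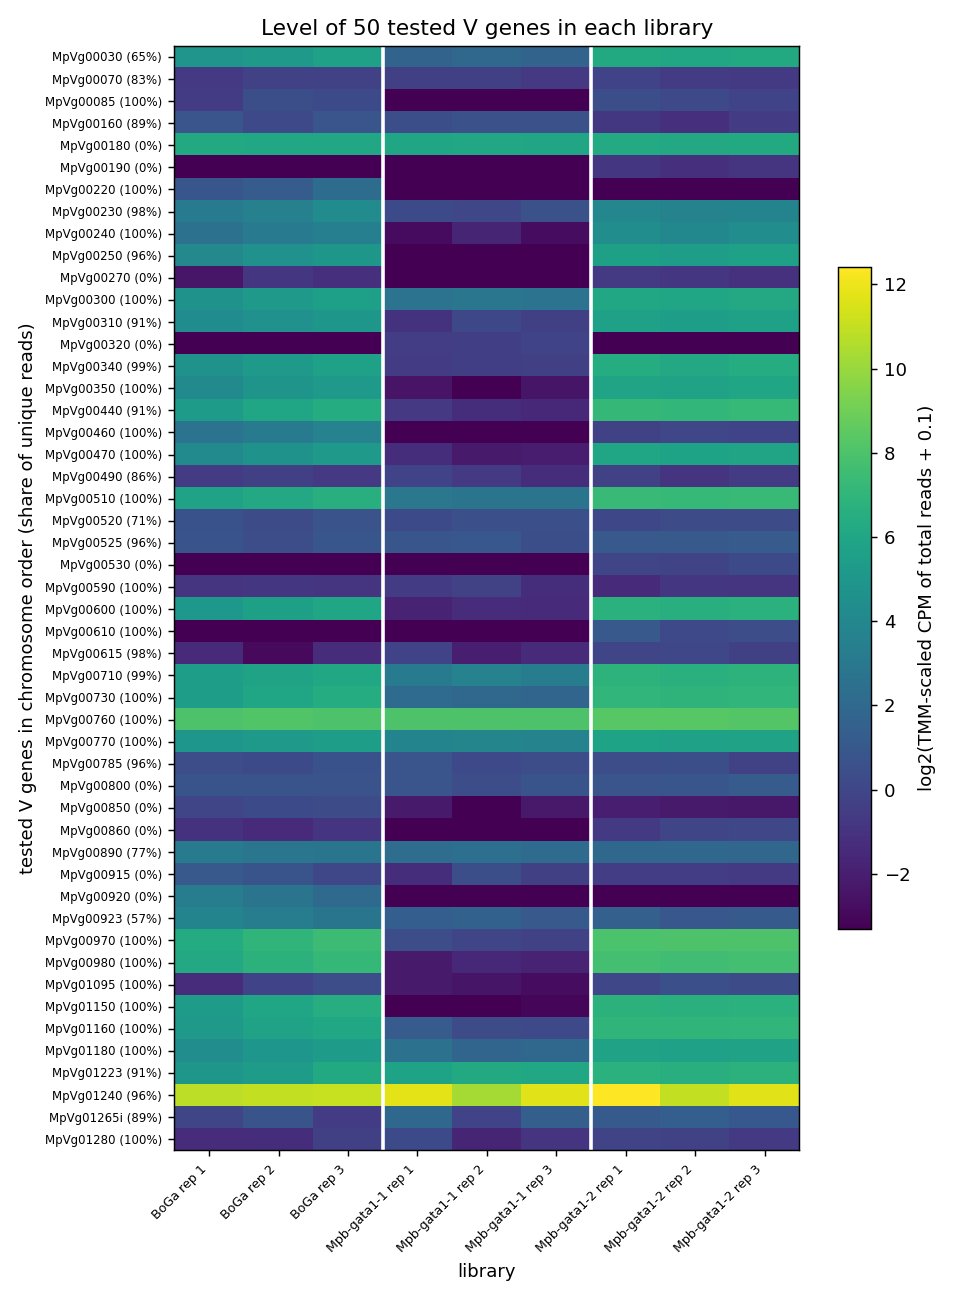
Level of the 50 tested V genes (rows, in order along the chromosome, with their share of unique reads) in the 9 libraries (columns), as log2 of TMM-scaled CPM of total reads plus 0.1. Many rows are dark in the Mpb-gata1-1 columns, intermediate in BoGa and brightest in Mpb-gata1-2, while a few such as MpVg00760 and MpVg01240 are bright in all 9 and MpVg00220 and MpVg00920 have reads in BoGa alone.

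In total, 20 V genes were lower than BoGa in Mpb-gata1-1 and higher than BoGa in Mpb-gata1-2, of which 16 were unique. Over all 14667 tested genes, 171 (1.17%) had these calls. All 20 also passed between the mutants, and in all 20 no library of a group overlapped those of another, which held for 158 (1.08%) of all tested genes. Their log2 rise in Mpb-gata1-2 ran from 0.56 to 1.28, with a median of 1.02, while their falls in Mpb-gata1-1 spanned a far wider range. The tested V genes were therefore grouped by how much of their Mpb-gata1-2 level was left in Mpb-gata1-1. These groups were set after the values had been seen and are a description without a test.

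Among the genes not set apart, under 5% of the Mpb-gata1-2 level was left in Mpb-gata1-1 for 18 V genes, 13 of them unique. The median left was 0.288%, and BoGa held a median of 49.1% (41.1 to 95.6%). MpVg00980 (V chromosome, 5118714 to 5136122, plus strand, positions as deposited) stood at 73.5, 110 and 140 CPM in BoGa replicates 1 to 3, at 0.120, 0.234 and 0.179 CPM in Mpb-gata1-1 and at 211, 192 and 211 CPM in Mpb-gata1-2. All 3 Mpb-gata1-1 libraries were near 0, and the BoGa libraries lay between the mutants without overlap. The log2 change was -9.18 ± 0.35 (SE) in Mpb-gata1-1 (edgeR adjusted p = 1.15e-07) and 0.92 ± 0.18 in Mpb-gata1-2 (adjusted p = 0.00212).

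The nearby MpVg00970 (5094326 to 5098491, minus strand) had 82.4, 128 and 180 CPM in BoGa, 1.24, 0.877 and 0.715 CPM in Mpb-gata1-1 and 252, 260 and 262 CPM in Mpb-gata1-2. It fell by 7.17 ± 0.34 on the log2 scale in Mpb-gata1-1 (edgeR adjusted p = 4.36e-07) and rose by 0.99 ± 0.22 in Mpb-gata1-2 (adjusted p = 0.00427). Both genes thus had the same order of groups, and also the same order of the BoGa libraries. MpVg00440 (1996944 to 2030071, minus strand, 91.4% unique reads) had 41.3, 61.1 and 86.1 CPM in BoGa, 0.520, 0.321 and 0.246 CPM in Mpb-gata1-1 and 144, 136 and 147 CPM in Mpb-gata1-2. With unique reads it kept this picture, at 38.4 to 80.1, 0.250 to 0.530 and 127 to 137 CPM.

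MpVg00250 (1245704 to 1265046, plus strand) was without a single read in Mpb-gata1-1. It had 17.1, 25.3 and 32.5 CPM in BoGa and 49.6, 44.0 and 50.3 CPM in Mpb-gata1-2. With 3 reads over the group taken as the floor for Mpb-gata1-1, the level there was at least 873-fold below BoGa and at least 1663-fold below Mpb-gata1-2. MpVg01150 (6098311 to 6109186, minus strand) had 1 read in Mpb-gata1-1 and 10606 in Mpb-gata1-2, a ratio of 11121 with a 95% interval of 1996 to 439288 that covers counting error only. Both were named after their values had been seen. MpVg00860, which had no unique read, was also at 0 in Mpb-gata1-1 and at 0.283 to 0.410 CPM in BoGa, at least 12.6-fold higher. Its rise in Mpb-gata1-2 (log2 1.11 ± 0.32, edgeR adjusted p = 0.0198) missed the threshold when BoGa replicate 2 was left out (0.0704), and likewise for replicates 2 (0.0675) and 3 (0.0836) of Mpb-gata1-2, and also with DESeq2 (0.0668).

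Some genes of this set kept a low but measurable level in Mpb-gata1-1. MpVg00510 (2391077 to 2403925, minus strand) had 52.9, 72.3 and 99.5 CPM in BoGa, 7.52, 6.43 and 6.64 CPM in Mpb-gata1-1 and 158, 150 and 157 CPM in Mpb-gata1-2, so that 4.42% of the Mpb-gata1-2 level was left. MpVg00730 (4103572 to 4113504, plus strand) had 43.7, 63.6 and 87.2 CPM in BoGa, 4.40, 3.68 and 3.37 CPM in Mpb-gata1-1 and 133, 123 and 134 CPM in Mpb-gata1-2. MpVg01160 (6135603 to 6140539, plus strand) had 35.8, 52.6 and 69.7 CPM in BoGa, 2.16, 1.17 and 1.03 CPM in Mpb-gata1-1 and 127, 128 and 129 CPM in Mpb-gata1-2. All 3 genes were unique, and their log2 changes in Mpb-gata1-1 of -3.46 ± 0.21, -4.11 ± 0.24 and -5.27 ± 0.30 passed edgeR's test (adjusted p = 1.82e-06, 1.78e-06 and 1.28e-06).

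Another 6 V genes, all unique, kept 5 to 30% of their Mpb-gata1-2 level in Mpb-gata1-1, with a median of 8.82%. MpVg00770 (4313587 to 4317965, minus strand), named after its values were seen, kept most, at 25.6%. It had 30.3, 35.2 and 43.9 CPM in BoGa, 13.9, 14.4 and 13.0 CPM in Mpb-gata1-1 and 56.5, 51.9 and 52.8 CPM in Mpb-gata1-2. The 3 groups did not overlap, and the changes of -1.41 ± 0.12 (edgeR adjusted p = 1.21e-05) and 0.56 ± 0.11 (adjusted p = 0.00245) were smaller than those of the genes above. MpVg00710 (4045520 to 4100371, minus strand) had 42.8, 53.5 and 70.0 CPM in BoGa, 8.91 to 12.5 CPM in Mpb-gata1-1 and 118, 103 and 118 CPM in Mpb-gata1-2, so that 9.28% was left. MpVg00300, MpVg01180, MpVg00230 and MpVg01095 kept 9.63, 8.37, 8.08 and 7.54%, and of these only MpVg00230 falls under the naming rule.

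The BoGa pools differed from each other in the level of many V genes, with replicate 1 lowest and replicate 3 highest in 27 of the 50 tested V genes. The V level of a library was set as the median, over the 22 unique V genes whose mean reached 1 CPM, of the unique-read CPM relative to the Mpb-gata1-2 mean. BoGa replicates 1, 2 and 3 had V levels of 0.359, 0.515 and 0.665, against 0.0254, 0.0197 and 0.0171 in Mpb-gata1-1, and 1.04, 0.947 and 1.01 in Mpb-gata1-2, with no overlap between groups (exact permutation p = 0.1 for each pair). BoGa replicate 1 was lowest and replicate 3 highest for 19 of the 22 genes (86.4%), against 3245 of 12965 genes of the numbered chromosomes (25%). The ratio of BoGa replicate 3 to replicate 1 had a median of 1.91 over the 22 genes (0.984 to 2.26), while the numbered-chromosome genes had a median of 1.00 with quartiles of 0.898 and 1.13. Which plants made up each pool is not in the labels, so pools with unequal V content and pools with unequal expression cannot be told apart.

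**Figure D3:**
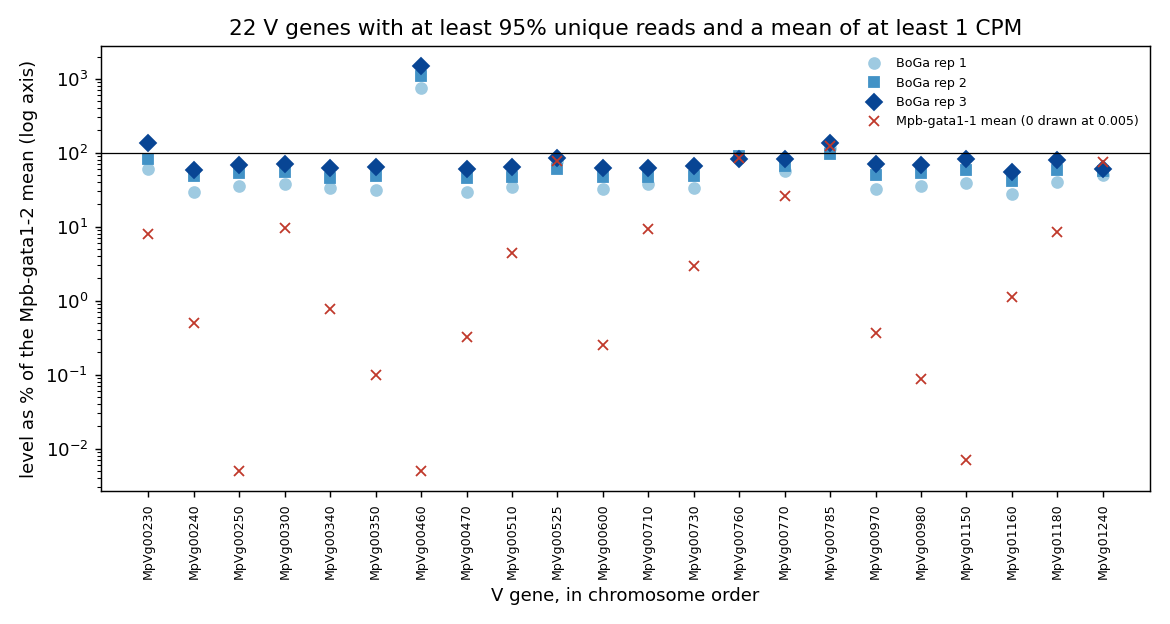
Level of the 22 V genes that set the V level (x axis, in chromosome order) as a percentage of the Mpb-gata1-2 mean (y axis, log scale), with blue symbols for the BoGa libraries and crosses for the Mpb-gata1-1 mean, a mean of 0 being drawn at 0.005. In most genes the BoGa libraries lie below 100% in a fixed order, with medians of 36.8, 53.3 and 68.2%, while MpVg00460 lies far above 100%, and the crosses run from 0 to about the BoGa level.

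To see which V genes departed from this common level, Mpb-gata1-2 and BoGa were compared again with the V level of each library as an offset for the V genes. Of 49 V genes tested, 6 were higher and 20 lower in Mpb-gata1-2 (edgeR adjusted p under 0.05), beside 21.3% and 22.7% of the 14462 genes tested, and the median log2 change was -0.19 (all genes, -0.013). A gene at an even level in all libraries comes out lower here by construction, since it is divided by the V level. Of the 22 genes that set the level, 15 lay within 0.3 of 0 on the log2 scale, which follows in part from their choice, and 9 were called different from the common level. MpVg00980 and MpVg00970 did not pass, at -0.03 ± 0.05 (adjusted p = 0.689) and 0.06 ± 0.08 (0.562). MpVg01160 at 0.34 ± 0.06 (0.00231) and MpVg00440 at 0.24 ± 0.06 (0.0135) rose above the common level. With a V level from summed unique reads the changes were larger, at 0.51 and 0.40, but neither passed (0.0985 and 0.174). MpVg01240 made up 55.1 to 63.9% of that sum in BoGa and 47.0 to 68.8% in Mpb-gata1-2. MpVg00440 also did not pass without Mpb-gata1-2 replicate 2 (0.0588). MpVg00770 lay below it at -0.43 ± 0.09 (0.00746).

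Several V genes were highest in BoGa. MpVg00460 (2146011 to 2149195, minus strand, unique) had 6.15, 9.20 and 12.3 CPM in BoGa, no read in Mpb-gata1-1 and 0.750, 0.935 and 0.813 CPM in Mpb-gata1-2. It was at least 323-fold lower in Mpb-gata1-1 than in BoGa and fell by 3.46 ± 0.29 on the log2 scale in Mpb-gata1-2 (edgeR adjusted p = 3.50e-05), or by 4.40 ± 0.15 relative to the V level (6.54e-07). MpVg00220 (1180983 to 1183912, minus strand, unique) had 1.73, 2.29 and 4.54 CPM in BoGa, 297 reads in all, and no read in either mutant. The floor puts the fall at 101-fold or more in Mpb-gata1-1 and at 96.4-fold or more in Mpb-gata1-2. In both genes BoGa replicate 1 was lowest and replicate 3 highest, as for the V level. MpVg00850, with no unique read, had 0.866, 1.04 and 1.18 CPM in BoGa and 0 to 0.150 CPM in the mutants.

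A cluster of overlapping or adjoining minus-strand genes between 4850081 and 4875945 was also higher in BoGa, but there BoGa replicate 1 was highest and replicate 3 lowest. MpVg00923 (4874577 to 4875945, 57.1% unique reads) had 13.8, 10.2 and 6.70 CPM in BoGa, 2.56, 2.92 and 1.99 CPM in Mpb-gata1-1 and 2.74, 1.81 and 2.08 CPM in Mpb-gata1-2. Its log2 changes were -2.05 ± 0.27 (edgeR adjusted p = 0.000219) and -2.22 ± 0.27 (0.000141), and with unique reads the groups lay at 4.40 to 10.5, 0.611 to 0.743 and 0.491 to 0.572 CPM. MpVg00920 (4872829 to 4874567, no unique read) had 10.3, 6.56 and 3.99 CPM in BoGa and no read in either mutant, at least 238-fold and 227-fold lower.

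MpVg00890 (4850081 to 4874634, 77.3% unique reads) spans MpVg00915 and MpVg00920 and overlaps part of MpVg00923. It had 8.60, 7.10 and 6.81 CPM in BoGa, 4.88, 5.20 and 4.40 CPM in Mpb-gata1-1 and 3.79, 3.86 and 3.64 CPM in Mpb-gata1-2. It was lower in both mutants, with a log2 change of -0.64 ± 0.12 in Mpb-gata1-1 (edgeR adjusted p = 0.00178) and an adjusted p of 0.000127 in Mpb-gata1-2. MpVg00915 (4872700 to 4873285, no unique read) had 1.97, 1.63 and 0.930 CPM in BoGa, 0.320, 1.29 and 0.693 CPM in Mpb-gata1-1 and 0.637, 0.633 and 0.534 CPM in Mpb-gata1-2. Its log2 difference of -0.94 ± 0.40 in Mpb-gata1-1 did not pass (edgeR adjusted p = 0.0804) except without BoGa replicate 3 (0.0231) or Mpb-gata1-1 replicate 2 (0.0150), and its fall of 1.33 in Mpb-gata1-2 (0.0246) was lost without BoGa replicate 1 (0.0795) or 2 (0.0632) and without any one Mpb-gata1-2 replicate (0.0588 to 0.0865). Because these genes overlap, their reads cannot be assigned with certainty.

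A few V genes had reads in a single mutant. They passed the filter on low counts through that mutant alone, so their calls follow in part from the filter. MpVg00610 (3444144 to 3446133, plus strand, unique) had 1.99, 0.995 and 1.22 CPM in Mpb-gata1-2, 134 reads in all, and none in the other groups, so it was at least 45.9-fold above BoGa and at least 46.8-fold above Mpb-gata1-1. MpVg00530 (2748529 to 2750494, minus strand) had 0.862, 0.844 and 1.07 CPM in Mpb-gata1-2 alone, at least 31.8-fold above BoGa, and MpVg00190, named after its values were seen, had 40 reads there, at least 13.7-fold above BoGa. MpVg00320 (1567407 to 1572208, plus strand) had reads in Mpb-gata1-1 alone, at 0.640, 0.672 and 0.804 CPM, and was the V gene called higher there, at least 24.5-fold above BoGa. Apart from MpVg00610 these genes had no unique read, so the gene from which the reads came is not known.

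Of the genes not set apart, 17 kept at least 30% of the Mpb-gata1-2 level in Mpb-gata1-1, with a median of 94.6%, and 7 of them were unique. MpVg00760 (4276803 to 4280566, minus strand, unique) was the clearest of these. It had 261, 277 and 257 CPM in BoGa, 260, 260 and 258 CPM in Mpb-gata1-1 and 317, 316 and 297 CPM in Mpb-gata1-2. The first 2 groups overlapped, with a log2 difference of -0.03 ± 0.05 (edgeR adjusted p = 0.650) whose sign turned without BoGa replicate 2 (0.01), and the gene was higher in Mpb-gata1-2 by 0.23 ± 0.05 (adjusted p = 0.00501). Its BoGa libraries did not follow the order of the V level.

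MpVg01240 (7017541 to 7020380, minus strand, 95.5% unique reads) had 1813, 2027 and 2155 CPM in BoGa, 3460, 1238 and 3404 CPM in Mpb-gata1-1 and 5470, 2030 and 3299 CPM in Mpb-gata1-2. Replicate 2 was the lowest library in both mutants, and the groups overlapped. No contrast passed, with log2 differences of 0.43 ± 0.43 (edgeR adjusted p = 0.436) and 0.85 ± 0.43 (0.139) against BoGa. Without Mpb-gata1-1 replicate 2, the latter passed (0.0324). The gene's unique reads alone gave nearly the same levels, from 1210 to 5270 CPM.

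MpVg01223 (6734336 to 6741664, minus strand, 91.3% unique reads) had 31.8, 41.5 and 75.4 CPM in BoGa, 56.6, 75.2 and 68.1 CPM in Mpb-gata1-1 and 106, 96.5 and 113 CPM in Mpb-gata1-2. Like the genes of the common pattern it was lowest in BoGa replicate 1 and highest in replicate 3, yet Mpb-gata1-1 was not low. It rose by 1.08 ± 0.26 on the log2 scale in Mpb-gata1-2 (edgeR adjusted p = 0.00684). The difference of 0.43 ± 0.26 in Mpb-gata1-1 did not pass (0.204), but without BoGa replicate 3 it was 0.87 and passed (0.000978).

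MpVg00180 (1126431 to 1127279, minus strand) had no unique read and lies within MpVg00160. It had 76.6, 69.4 and 70.1 CPM in BoGa, 62.6, 69.4 and 63.7 CPM in Mpb-gata1-1 and 78.6, 72.7 and 76.1 CPM in Mpb-gata1-2, and did not pass against BoGa in either mutant. Without Mpb-gata1-1 replicate 2 its log2 difference of -0.14 in Mpb-gata1-1 became -0.19 and passed (edgeR adjusted p = 0.0437). MpVg00160 (1090099 to 1152899, minus strand, 88.8% unique reads) had 1.64, 1.01 and 1.70 CPM in BoGa, 1.28, 1.40 and 1.39 CPM in Mpb-gata1-1 and 0.487, 0.362 and 0.585 CPM in Mpb-gata1-2. It fell by 1.59 ± 0.27 in Mpb-gata1-2 (adjusted p = 0.000815), with its unique reads at 0.276 to 0.388 CPM there. MpVg00800, with no unique read, lay at 1.23 to 2.16 CPM in all libraries and passed in none of the 3 contrasts between groups.

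MpVg00230 (1190715 to 1196820, minus strand, 98.0% unique reads) combined features of these sets. It had 8.34, 11.4 and 18.8 CPM in BoGa, 1.04, 0.935 and 1.41 CPM in Mpb-gata1-1 and 15.7, 12.8 and 13.4 CPM in Mpb-gata1-2. BoGa overlapped Mpb-gata1-2, and the log2 difference of 0.11 ± 0.25 did not pass (edgeR adjusted p = 0.732), although relative to the V level it fell by 0.82 ± 0.11 (0.000960). The difference changed sign without BoGa replicate 1 (-0.12) and passed without BoGa replicate 3 (0.49, adjusted p = 0.0241).

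**Figure D4:**
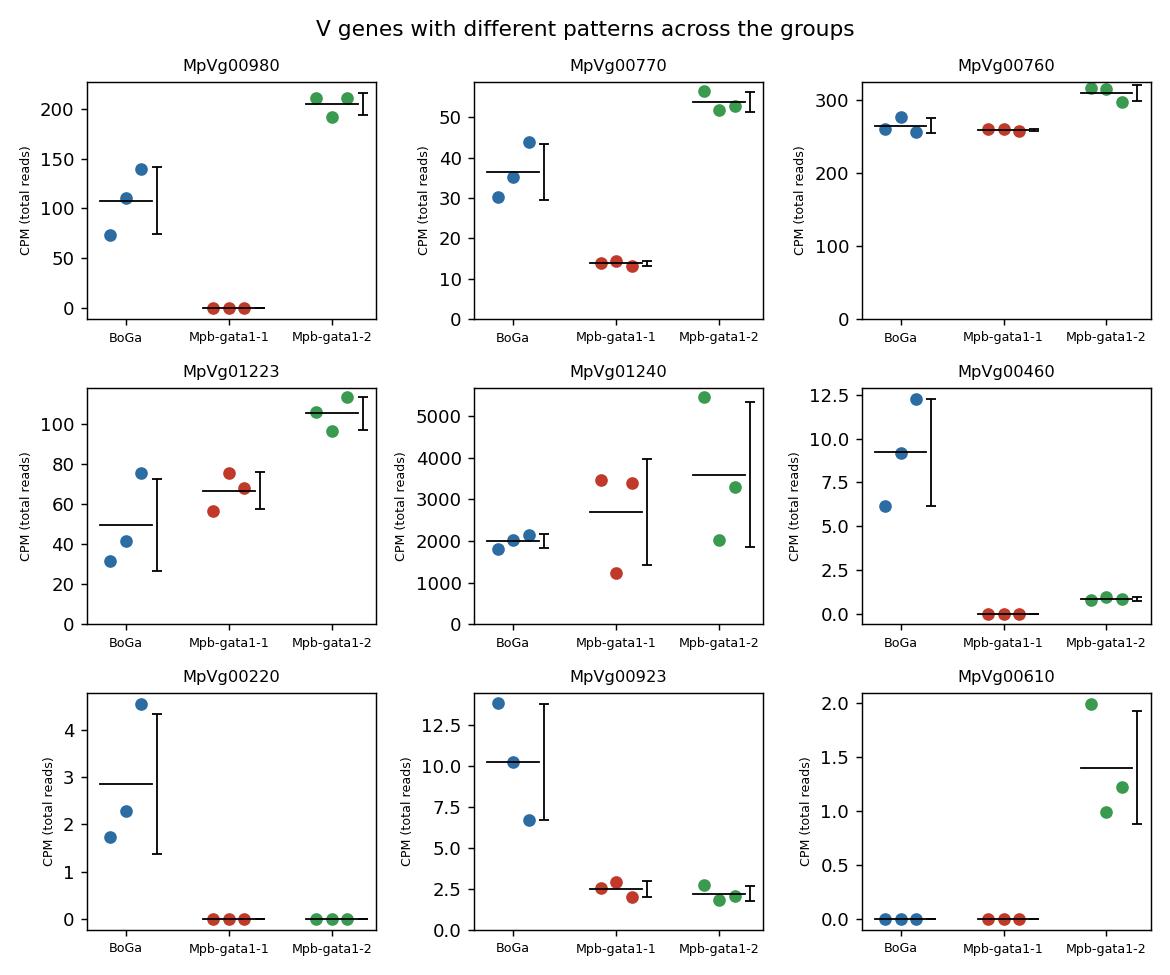
CPM of total reads (y axes, each with its own range) of 9 V genes in the 3 groups, with a point for each library, a line at the mean and a bar for the SD (n = 3). MpVg00980 and MpVg00770 rise from Mpb-gata1-1 through BoGa to Mpb-gata1-2, MpVg00760 is nearly level, MpVg01240 varies between libraries of a mutant, MpVg00460, MpVg00220 and MpVg00923 are highest in BoGa, and MpVg00610 has reads in Mpb-gata1-2 alone.

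Of 11 genes listed for sex and gametangia, 5 could be matched to a row of the tables by symbol, all on numbered chromosomes, and the other 6 were not analysed here. MpFGMYB (Mp1g17210), a promoter of female differentiation that an antisense transcript represses in males, had 6.69, 8.45 and 15.3 CPM in BoGa, 0.560, 0.877 and 0.760 CPM in Mpb-gata1-1 and 14.2, 13.8 and 18.5 CPM in Mpb-gata1-2. Its group means thus had the order of the 20 V genes above, and its BoGa libraries had the order of the V level. Unlike those genes, it had an overlap of BoGa with Mpb-gata1-2, as BoGa replicate 3 lay above Mpb-gata1-2 replicates 1 and 2. MpFGMYB fell by 3.76 in Mpb-gata1-1 (edgeR adjusted p = 2.94e-05), and its difference of 0.61 in Mpb-gata1-2 did not pass (0.0790). Whether reads were counted by strand is not given in the sources used here, so reads of the gene and of its antisense transcript cannot be told apart.

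MpRKD, which acts in egg cell formation, had 197 ± 3.77 CPM in BoGa, with Mpb-gata1-1 at 156 ± 4.48 CPM and Mpb-gata1-2 at 174 ± 2.04 CPM (SD, n = 3), and its log2 changes were -0.33 and -0.17 (edgeR adjusted p = 0.000295 and 0.0119). MpDUO1, a regulator of sperm differentiation, lay at 1.95 ± 0.201, 2.32 ± 0.147 and 2.27 ± 0.157 CPM and passed in no contrast. Neither had that order of groups.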

How the data were processed

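RNA sequencing counts of 9 libraries in 3 groups were used as deposited. Per the file headers, the tables give total and unique gene reads, which are counts that the authors did not normalize. Total gene reads include reads shared between genes. The kit was stranded per the labels' protocols. For the aligner, build, annotation and strand setting, nothing is given in the sources used here, so positions are as deposited. The V genes are all rows on the V chromosome.

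Total reads of all genes were tested with edgeR 4.0.16 in R 4.3.3 (filterByExpr by group, TMM factors, robust quasi-likelihood test, a term per group), and adjusted over all tested genes. Unless said otherwise, CPM values are TMM-scaled total reads. In the V-scaled comparison the log of the V level was added to the offset of V genes. The scripts were tested on simulated data with 200 changed genes for each mutant. For Mpb-gata1-1 and Mpb-gata1-2 against BoGa, 76.4 and 68.9% of 1.5-fold changes were recovered, and 100 and 98.7% of 4-fold changes. Of the calls, 3.85 and 7.53% were false. A separate simulation of the V-scaled comparison recovered 6 of 9 departing V genes and called 0 of 37 others. A group without reads was set to a floor of 3 reads, and intervals and floors cover counting error only. No replicate pair agreed within sampling noise (chi-square per degree of freedom of 8.4 or more).

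Named by rule were the 10 V genes with the highest unique CPM, 6 with few unique reads, up to 8 called in the V-scaled comparison, up to 8 called higher in Mpb-gata1-1 or lower in Mpb-gata1-2, and 3 with most unique reads in Mpb-gata1-1, which came to 25 genes. The V genes and gene lists were chosen with earlier results of these data known. Alternatives were unique reads, RLE factors, DESeq2 1.42.0, other filters and thresholds, a replicate block, a fit of the compared groups alone, other definitions of the V level, and leaving out each library.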

Additional observations from a re-analysis of the deposited data

Results flagged for a closer look

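For 20 V genes the effects of the lines went in opposite directions: lower than BoGa in Mpb-gata1-1, higher than BoGa in Mpb-gata1-2, with the difference between the mutants also past the threshold (edgeR adjusted p under 0.05). In each of the 20 all 3 Mpb-gata1-1 libraries lay below BoGa and all 3 Mpb-gata1-2 libraries above it, and the log2 rise in Mpb-gata1-2 was 0.56 to 1.28. Of all 14667 tested genes, 171 (1.17%) had these opposite calls and 158 (1.08%) also had no overlap. Both effects share the BoGa libraries, and the cause was not tested.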

How the results depend on the processing

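Counts of V genes are limited by the 50 that could be tested and by shared reads. V genes higher in Mpb-gata1-1 than in BoGa numbered 0 with unique reads or a filter of at least 1 CPM in 3 libraries, 2 with DESeq2, 4 without a filter and 1 to 5 when a library was left out. V genes lower in Mpb-gata1-2 than in BoGa numbered 5 with unique reads (7 to 8 with a library left out), and those higher numbered 16 at 2-fold or more (22 to 28). Lower in Mpb-gata1-2 than in Mpb-gata1-1 were 1 with unique reads or the stricter filter, 4 without a filter and 2 to 4 with a library left out. Relative to the V level, 3 were higher with summed unique reads and 3 at 2-fold or more (4 to 8 with a library left out), and 11 were lower at an adjusted p under 0.01 and 13 at 2-fold or more (13 to 20, lowest without Mpb-gata1-2 replicate 3). The V level of Mpb-gata1-1 was 0.0119 with genes of at least 5 CPM. With a library left out, the V share of unique reads in Mpb-gata1-1 minus BoGa ranged from -0.0455 to 0.0636 and of total reads from -0.0502 to 0.0599 percentage points, with the sign turned without BoGa replicate 3 (0.0131 and 0.0111) or Mpb-gata1-1 replicate 2. Signs turned when a library was left out, with log2 ranges of -0.29 to 0.04 for MpVg00160 (0.00 without BoGa replicate 1), -0.05 to 0.01 for MpVg00760 and -0.11 to 0.09 for MpVg00800 in Mpb-gata1-1 minus BoGa, -0.12 to 0.49 for MpVg00230 in Mpb-gata1-2 minus BoGa, -0.71 to 0.15 for MpVg00915 and -0.02 to 0.70 for MpVg01240 between the mutants, and -0.01 to 0.43 for MpVg00860, -0.01 to 0.13 for MpVg00970 and -0.59 to 0.05 for MpVg01240 relative to the V level. MpVg00980 relative to the V level was 0.14 with summed unique reads. Of the other alternatives for named genes 1340 kept direction and call, 18 lost the call and 18 gained it. The cause was not tested.

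Same-numbered replicates did not deviate together more than others (r of -0.116 to 0.161, against -0.168 to 0.186 for different numbers). No pairing by number was seen, though 3 libraries for each group are too few to show that there was none. With the replicate number as a block, 1 V gene was higher and 30 lower in Mpb-gata1-1, 26 higher and 8 lower in Mpb-gata1-2, 31 higher and 2 lower between the mutants, and 6 higher and 19 lower relative to the V level.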

Other observations

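The pattern of the V genes that were low in Mpb-gata1-1 and intermediate in BoGa was counted for few genes elsewhere. The limits were set after the data had been seen. They included a Mpb-gata1-2 mean of at least 1 CPM and under 10% of it in Mpb-gata1-1. BoGa had to lie at 20 to 90% of it, with its libraries in the order of the V level. Of the genes with such a Mpb-gata1-2 mean, 18 of 34 V genes and 2 of 12873 other genes were counted. MpVg01095 and MpFGMYB met these limits by their group means but were not counted, and in both BoGa overlapped Mpb-gata1-2. How many more genes met them by group means alone was not tested. Mp7g06330 (chromosome 7, 7393051 to 7394354, plus strand) had 2.87, 5.68 and 6.07 CPM in BoGa, 0.240, 0.321 and 0.179 CPM in Mpb-gata1-1 and 9.97, 10.5 and 11.3 CPM in Mpb-gata1-2. Mp7g11270 (chromosome 7, 12507219 to 12509553, plus strand) had 0.478, 0.722 and 0.957 CPM in BoGa, no read in Mpb-gata1-1 and 1.31, 1.30 and 1.19 CPM in Mpb-gata1-2.

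The mirror pattern, with the mutants exchanged and the BoGa libraries in the reverse order, was found for 5 genes off the V chromosome and for 0 V genes. Mp8g18240 had 48.6, 35.3 and 23.3 CPM in BoGa, 67.5, 78.0 and 71.5 CPM in Mpb-gata1-1 and 0, 0.0603 and 0 CPM in Mpb-gata1-2. Mp6g14520 had 179, 156 and 69.9 CPM in BoGa, 261, 230 and 228 CPM in Mpb-gata1-1 and 23.4, 22.6 and 18.8 CPM in Mpb-gata1-2. Mp2g05440, Mp5g01380 and Mp2g23310 had no read in Mpb-gata1-2. Whether any of these genes lies near a sex-linked sequence was not tested.

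The V annotation differs in shape from that of the numbered chromosomes. V genes had a median length of 2006 bp, against 2736 bp, and 7 of them (3.38%) were longer than 100000 bp, against 0 genes of the numbered chromosomes. Overlaps with another V gene on the same strand were listed for 79 of the 207 V genes.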
